A study of Homo sapiens with 12 samples.

Results

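The genes described here are 10 genes of the unfolded protein response of the endoplasmic reticulum (ER): HSPA5, HSP90B1, HYOU1, DNAJC3, DNAJB9, SDF2L1, PDIA4, HERPUD1, EDEM1 and XBP1. Members were all array probes whose single gene symbol in the platform table is 1 of these names, which gave 11 probes of 9 genes, out of 20039 genes with a probe. No probe is named for HERPUD1 in that table, so its transcript is not analysed here. XBP1 and HYOU1 had 2 probes each and the other 7 genes had 1. All 11 probes were detected (detection p-value under 0.01) on all 12 arrays, so each member stood among the 10873 genes tested, and none entered through a group in which it was high.

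The samples were OVCAR-3 cells, an established line derived from a human ovarian carcinoma, from which total RNA was taken 72 hours after transfection of small interfering RNA (siRNA) with Lipofectamine RNAiMAX. One group received control siRNA, the second siRNA against Oct4 (gene POU5F1), the third siRNA against Ccnf together with siRNA against Nipp1 (genes CCNF and PPP1R8), and the fourth siRNA against Rb1. Below, the names control, siOct4, siCcnf+siNipp1 and siRb1 stand for these groups, with 3 Illumina HT-12 arrays each, so the double knockdown has no single-knockdown counterpart here. All groups share 1 cell line, the transfection and the time of harvest. The labels speak of biological replicates and do not mention separate cultures, and the p-values therefore rest on a spread among samples that may be technical.

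The ER is where secreted and membrane proteins fold. When unfolded proteins accumulate there, the membrane sensors IRE1 (gene ERN1), PERK (gene EIF2AK3) and ATF6 are activated: IRE1 splices XBP1 mRNA into the form that encodes an active transcription factor, ATF6 is cut to release another, and PERK phosphorylates eIF2α, which lowers general translation while ATF4 is translated. The factors released by IRE1 and ATF6 bind ER stress response elements in the promoters of chaperone genes. Arrays measure transcript abundance, so splicing of XBP1, cleavage of ATF6 and phosphorylation by PERK were not measured.

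The promoters of 6 of the 10 genes hold 1 of the 2 best known elements of the response, and those of the measured genes are shown because factors of the response are known to bind such elements. The windows were RefSeq's 250 bases before to 50 bases after the annotated start of each gene, on GRCh38.p14, and all 10 genes had one. The ER stress response element was searched on both strands as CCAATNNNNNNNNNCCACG and the ER stress response element II as ATTGGNCCACG. The first stood in 27 of 35116 promoters (0.0769%) and, among the members, in HSPA5, in XBP1 and at 2 places in HSP90B1. The second stood in 19 promoters (0.0541%), among them HERPUD1, SDF2L1 and, at 2 places, HYOU1. The elements are in capitals with 20 flanking bases in lower case, each written 5′ to 3′ on the gene's own strand.
HSPA5 (chr9:125241371-125241429, minus strand): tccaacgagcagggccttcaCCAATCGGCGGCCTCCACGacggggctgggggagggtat
HSP90B1 (chr12:103930196-103930359, plus strand): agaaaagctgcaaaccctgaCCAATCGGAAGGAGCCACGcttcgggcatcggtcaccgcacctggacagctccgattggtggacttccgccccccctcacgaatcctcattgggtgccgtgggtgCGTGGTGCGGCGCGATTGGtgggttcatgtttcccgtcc
XBP1 (chr22:28800583-28800641, minus strand): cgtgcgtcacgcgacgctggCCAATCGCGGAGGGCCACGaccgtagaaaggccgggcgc
SDF2L1 (chr22:21642094-21642144, plus strand): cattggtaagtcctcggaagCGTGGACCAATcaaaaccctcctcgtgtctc
HYOU1 (chr11:119057254-119057410, minus strand): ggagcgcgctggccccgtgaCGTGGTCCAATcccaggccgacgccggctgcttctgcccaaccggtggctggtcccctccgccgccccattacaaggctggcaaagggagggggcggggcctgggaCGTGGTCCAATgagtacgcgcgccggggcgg

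In HSPA5 and XBP1 the element ran along the gene, with its first base 66 and 52 bases before the start. HSP90B1 carried one copy in each orientation, beginning 194 and 89 bases before the start. The elements II of SDF2L1 and HYOU1 read on the opposite strand, beginning 188 bases before the start in SDF2L1 and 185 and 79 bases before it in HYOU1. A shorter core of the XBP1 and ATF6 site, TGACGTG, stood in 692 promoters (1.97%) and in 1 member, HYOU1, where it overlaps the first element II. The composite site of CHOP and ATF factors, TGATGNAA, stood in 1270 promoters (3.62%) and in 1 member, HERPUD1. DNAJC3, DNAJB9, PDIA4 and EDEM1 held none of these letters in their windows. Among 26 other ER folding genes with a window, 5 held the first element: CALR, CANX, CRELD2, ERO1B and PDIA6. A match of letters is a description of the window, and binding was not measured.

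**Figure D1:**
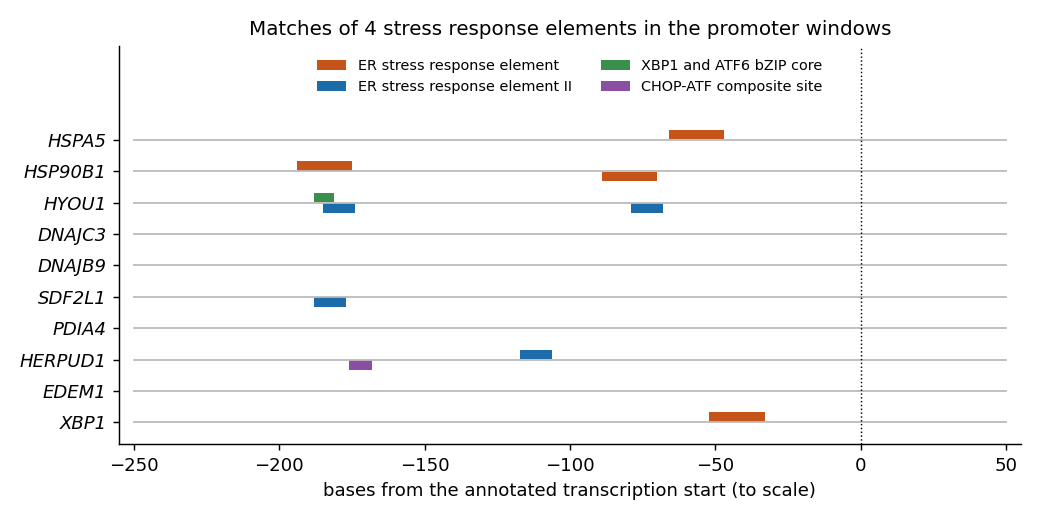
Positions of the 4 searched elements in the promoter windows of the 10 genes. The horizontal axis is the distance in bases from the annotated start (dotted line); bars above a gene's line read along the gene and bars below it on the opposite strand. HSP90B1 and HYOU1 each hold 2 copies of an element, and DNAJC3, DNAJB9, PDIA4 and EDEM1 hold none.

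All values below are log2 signals after background correction and quantile normalisation of the deposited intensities with limma's neqc, given in the order of replicates 1, 2 and 3. Differences are log2 differences of group means ± the standard error of the limma model over all 12 arrays, and a gene was called at a Benjamini-Hochberg adjusted p under 0.05 over the 10873 genes. Probes differ in brightness, so a level is compared only with the same probe on other arrays. The number of arrays limits the precision: for 3 arrays against 3, an exact two-sided permutation test of a single gene cannot go below 0.1, which each member called below reached.

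The knockdowns were visible in the targeted transcripts. The POU5F1 probe gave 10.60, 10.47 and 10.66 in control and stood at least 15.9-fold lower in siOct4, with no array of that group detecting it. CCNF gave 12.06, 11.95 and 11.71 in control and 10.98, 10.00 and 10.09 in siCcnf+siNipp1, where replicate 1 kept the highest signal, and was also lower in siOct4 (11.37, 10.74 and 10.74, adjusted p = 0.0124, or 0.0501 without siOct4 replicate 2). RB1 was at least 2.22-fold lower in siRb1 than in control, again with no array detecting it. Targets also moved in other groups: RB1 was lower in siOct4 by -0.61 (adjusted p = 0.0405), with overlap between the groups and the call lost in 9 of 19 alternatives, among them the removal of control replicate 1, control replicate 3, siOct4 replicate 2, siOct4 replicate 3, siCcnf+siNipp1 replicate 1 or siRb1 replicate 3. POU5F1 was higher in siCcnf+siNipp1 by 1.03 (adjusted p = 0.00267), or by 0.27 and not called with the mean of its probes. No probe is named for PPP1R8, so the Nipp1 part of the double knockdown was not checked. Between 16186 and 17351 probes were detected per array. Of the serous carcinoma markers, EPCAM, KRT18, KRT7 and PAX8 were detected on all 12 arrays and WT1 on none. KRT8 was detected on the 3 control arrays and on no knockdown array, at least 2.09-fold lower in siOct4, 2-fold in siCcnf+siNipp1 and 2.06-fold in siRb1 (adjusted p = 0.000134, 0.00058 and 0.00532), and MUC16 was detected on 2 control arrays, 1 siOct4 array, 1 siRb1 array and no siCcnf+siNipp1 array, with no call against control. Of 5 fibroblast markers 0 were detected on all arrays and 4 on none, and the 1 tested was called higher in siCcnf+siNipp1 against control (0.77). Of 5 leukocyte markers 4 had a probe, 0 were detected on all arrays, CD3E and PTPRC were detected on none, and 0 were tested. Of 4 endothelial markers CDH5 and VWF were detected on all arrays and KDR and PECAM1 on none. The 2 detected ones were both called lower in siCcnf+siNipp1 against control (median -0.97), and 1 of them in siOct4. Their part in the results was not tested.

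Across the 4 groups, 6 of the 9 measured members differed by the moderated F test: HSP90B1, DNAJC3, XBP1, EDEM1, SDF2L1 and PDIA4. Their adjusted p ran from 0.000122 for HSP90B1 to 0.0171 for PDIA4. The same test called 58.2% of all genes, so a share of 6 in 9 is close to that of genes at large. HSPA5, DNAJB9 and HYOU1 were not called (adjusted p = 0.519, 0.321 and 0.403). The members did not move together: XBP1 and EDEM1 rose with siOct4 while HSP90B1 fell, and HSP90B1 rose in the other knockdowns.

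**Figure D2:**
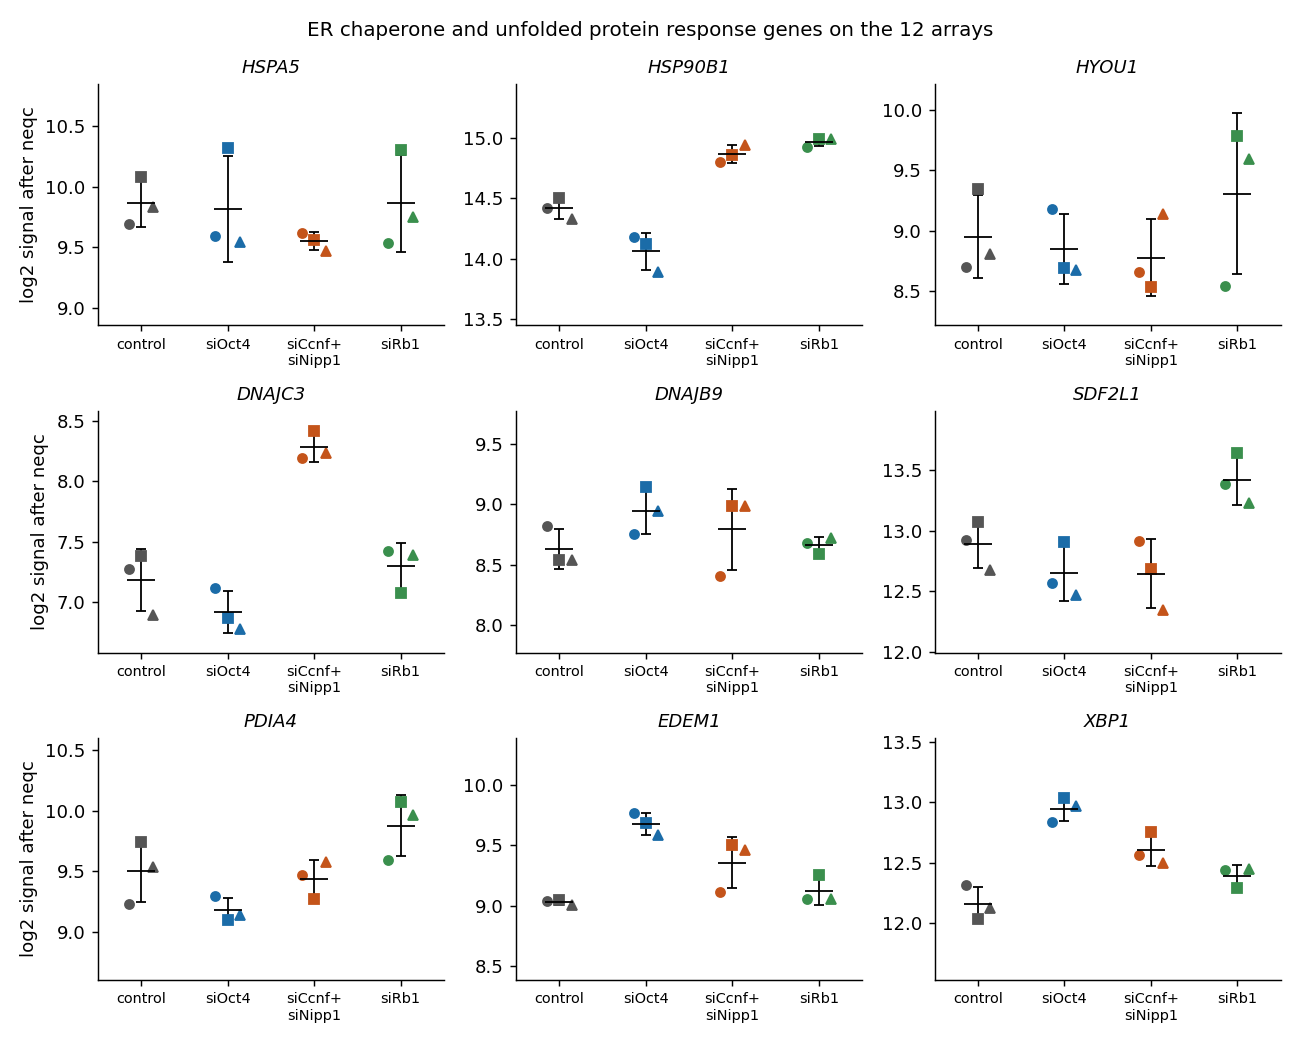
Log2 signal of the 9 measured genes on each array, with the groups on the horizontal axis. Circles, squares and triangles are replicates 1, 2 and 3, the horizontal bar is the group mean and the error bar 1 SD (n = 3); every panel spans the same number of log2 units. DNAJC3 stands apart in siCcnf+siNipp1, XBP1 and EDEM1 are highest in siOct4, and HSPA5 spreads within groups more than between them.

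HSPA5 encodes BiP, the ER's HSP70 chaperone, which holds the sensors inactive until unfolded proteins draw it away. Its signal was 9.69, 10.08 and 9.83 in control, 9.59, 10.32 and 9.54 in siOct4, 9.61, 9.56 and 9.47 in siCcnf+siNipp1, and 9.53, 10.31 and 9.75 in siRb1. Replicate 2 was the highest of its group in control, siOct4 and siRb1, and the 3 siCcnf+siNipp1 arrays lay below all 3 controls. No comparison passed the test: the difference from control was -0.05 ± 0.23 in siOct4 (95% interval -0.55 to 0.45), -0.32 ± 0.23 in siCcnf+siNipp1 (-0.82 to 0.18) and -0.01 ± 0.23 in siRb1 (-0.51 to 0.49). Each interval holds changes of either sign, so with 3 arrays a group the direction of any change of HSPA5 was not settled.

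HSP90B1 encodes GRP94, the HSP90 of the ER, a chaperone of integrins and Toll-like receptors. It gave 14.42, 14.50 and 14.33 in control, 14.18, 14.12 and 13.89 in siOct4, 14.80, 14.86 and 14.94 in siCcnf+siNipp1, and 14.93, 14.99 and 14.99 in siRb1. The siOct4 arrays lay below every control and the arrays of both other knockdowns above every control. It fell with siOct4 (-0.35 ± 0.11, adjusted p = 0.0248) and rose with siCcnf+siNipp1 (0.45 ± 0.11, adjusted p = 0.00658) and with siRb1 (0.55 ± 0.11, 1.47-fold, adjusted p = 0.014). siOct4 was lower than siCcnf+siNipp1 by -0.80 ± 0.11 (adjusted p = 0.000196) and lower than siRb1 by -0.91 ± 0.11 (adjusted p = 0.000124), and these comparisons were called under all 20 alternatives tried. The upper groups differed by -0.10 ± 0.11 (siCcnf+siNipp1 minus siRb1, 95% interval -0.34 to 0.13). The differences from control were less stable. The fall with siOct4 missed the threshold without control replicate 1, control replicate 2 or siOct4 replicate 3, with median scaling and with the arrays of the 2 groups alone, with adjusted p between 0.0121 and 0.0933 over all alternatives. The rise with siRb1 missed it without control replicate 3, siRb1 replicate 2 or siRb1 replicate 3 and with median scaling (adjusted p 0.00221 to 0.0868), and the rise with siCcnf+siNipp1 with median scaling only (adjusted p 0.000895 to 0.0719).

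HYOU1 encodes GRP170, a nucleotide exchange factor of BiP. The probe read as the gene gave 8.70, 9.35 and 8.80 in control, 9.18, 8.69 and 8.67 in siOct4, 8.66, 8.53 and 9.14 in siCcnf+siNipp1, and 8.54, 9.78 and 9.59 in siRb1. On this probe the groups overlapped in every comparison and none was called. In siRb1 the SD was 0.67, with replicate 1 below replicates 2 and 3. Without siRb1 replicate 1 HYOU1 passed the test against siOct4 (adjusted p from 0.27 to 0.0262) and against siCcnf+siNipp1 (from 0.198 to 0.0166). The second probe gave 8.65, 9.43 and 8.91 in siRb1 and, unlike the first, put all 3 siOct4 arrays (8.99, 8.79 and 8.83) above all 3 controls (8.52, 8.70 and 8.57). Its difference with siOct4 was 0.27 against -0.10 for the first probe, and neither was called (adjusted p = 0.245 and 0.827 in the fit over probes). In siRb1 against control the second probe gave 0.40 and the first 0.36, neither called in that fit (adjusted p = 0.238 and 0.611). The siCcnf+siNipp1 arrays of the second probe lay below all siRb1 and all siOct4 arrays, without a call in that fit (adjusted p = 0.0604 and 0.171).

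DNAJC3, also named P58IPK, is a DnaJ co-chaperone of BiP and an inhibitor of the eIF2α kinases PERK and PKR. It gave 7.27, 7.38 and 6.90 in control, 7.12, 6.87 and 6.78 in siOct4, 8.20, 8.42 and 8.23 in siCcnf+siNipp1, and 7.43, 7.08 and 7.39 in siRb1. The 3 siCcnf+siNipp1 arrays stood above the 9 others, which overlapped among themselves. DNAJC3 rose 2.14-fold with siCcnf+siNipp1 (1.10 ± 0.15, adjusted p = 0.000284), the largest change of any measured member against control in the main fit. It was also higher there than in siRb1 (0.99 ± 0.15, adjusted p = 6e-04) and siOct4 was lower than siCcnf+siNipp1 by -1.36 ± 0.15 (adjusted p = 6.13e-05). All 3 calls held under the 20 alternatives, with values against control from 0.64 to 1.20. The rank of the rise depends on the processing, as XBP1 in siOct4 against control stayed at 0.69 or more. The DNAJC3 probe was dim, with detection p-values up to 0.00519 in control and siOct4, where the limit was 0.01. Neither siOct4 (-0.26 ± 0.15) nor siRb1 (0.11 ± 0.15) was called against control. siOct4 against siRb1 (-0.37 ± 0.15, adjusted p = 0.0827) passed only without siOct4 replicate 1 or without siRb1 replicate 2.

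DNAJB9, or ERdj4, is a DnaJ protein that brings BiP to IRE1 and helps degrade misfolded proteins. It gave 8.82, 8.54 and 8.54 in control, 8.75, 9.14 and 8.95 in siOct4, 8.41, 8.98 and 8.99 in siCcnf+siNipp1, and 8.68, 8.59 and 8.72 in siRb1. Replicate 1 of siCcnf+siNipp1 was the lowest of all 12 arrays while replicates 2 and 3 lay above every control. Against control the differences were 0.32 ± 0.17, 0.16 ± 0.17 and 0.03 ± 0.17 for siOct4, siCcnf+siNipp1 and siRb1, and no comparison was called.

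SDF2L1 is a soluble ER protein that works with the DnaJ protein DNAJB11 to keep BiP clients from aggregating. It gave 12.93, 13.07 and 12.67 in control, 12.57, 12.90 and 12.46 in siOct4, 12.91, 12.68 and 12.34 in siCcnf+siNipp1, and 13.39, 13.64 and 13.22 in siRb1. The siRb1 arrays stood above all 9 others. SDF2L1 was higher in siRb1 than in siOct4, where the difference of siOct4 from siRb1 was -0.77 ± 0.18 (adjusted p = 0.00639), and than in siCcnf+siNipp1 (-0.77 ± 0.18, adjusted p = 0.00576), under all 20 alternatives. siRb1 against control gave 0.53 ± 0.18 (95% interval 0.14 to 0.92), which missed the threshold (adjusted p = 0.123) and passed with the replicate number as a block (adjusted p = 0.0204). Replicate 3 was the lowest of its group in all 4 groups.

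PDIA4, or ERp72, is a protein disulfide isomerase, which makes and rearranges disulfide bonds. It gave 9.23, 9.74 and 9.53 in control, 9.29, 9.10 and 9.13 in siOct4, 9.47, 9.27 and 9.57 in siCcnf+siNipp1, and 9.59, 10.08 and 9.97 in siRb1. Each knockdown overlapped control, and none was called against it. siOct4 was lower than siRb1 by -0.70 ± 0.16 (adjusted p = 0.00603), under all 20 alternatives. siCcnf+siNipp1 was below siRb1 on every array (-0.44 ± 0.16, adjusted p = 0.0515), a comparison that the replicate block and 6 other alternatives called (adjusted p = 0.0445 with the block).

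EDEM1 recognises misfolded glycoproteins and speeds their export from the ER for degradation, and it is a target of spliced XBP1. It gave 9.04, 9.04 and 9.00 in control, 9.76, 9.68 and 9.58 in siOct4, 9.11, 9.50 and 9.46 in siCcnf+siNipp1, and 9.06, 9.26 and 9.06 in siRb1. The control arrays lay closest together (SD 0.02) and below all arrays of every knockdown, and the siOct4 arrays above all others. EDEM1 rose 1.57-fold with siOct4 (0.65 ± 0.12, adjusted p = 0.00186) and was higher in siOct4 than in siRb1 (0.55 ± 0.12, adjusted p = 0.00485), both under all 20 alternatives. The order of the means was siOct4, siCcnf+siNipp1, siRb1 and control, and no step between neighbours passed (adjusted p = 0.0601, 0.16 and 0.751). siCcnf+siNipp1 against control gave 0.33 ± 0.12 (adjusted p = 0.0522). It passed without siCcnf+siNipp1 replicate 1, the lowest array of that group (0.45, adjusted p = 0.011), with the block (adjusted p = 0.0342) and among genes detected on all 12 arrays. The block (adjusted p = 0.0394), that filter and the removal of siCcnf+siNipp1 replicate 2 also carried siOct4 against siCcnf+siNipp1 past the threshold, and siCcnf+siNipp1 against siRb1 passed without siCcnf+siNipp1 replicate 1 (adjusted p = 0.0338).

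XBP1 encodes the transcription factor of the IRE1 branch. Its probe for NM_005080, read as the gene, gave 12.31, 12.03 and 12.12 in control, 12.84, 13.04 and 12.97 in siOct4, 12.56, 12.75 and 12.50 in siCcnf+siNipp1, and 12.44, 12.29 and 12.45 in siRb1. All siOct4 arrays stood above all others and all siCcnf+siNipp1 arrays above siRb1 and control, which overlapped. XBP1 rose 1.73-fold with siOct4 (0.79 ± 0.12, 95% interval 0.53 to 1.05, adjusted p = 0.000447) and 1.36-fold with siCcnf+siNipp1 (0.45 ± 0.12, adjusted p = 0.0107), and was higher in siOct4 than in siRb1 (0.56 ± 0.12, adjusted p = 0.00378). The first and the last held under all 20 alternatives, and the rise with siCcnf+siNipp1 was lost with median scaling (adjusted p 0.00445 to 0.083). siOct4 exceeded siCcnf+siNipp1 by 0.34 ± 0.12 (adjusted p = 0.0396), which was lost in 10 of 20 alternatives (adjusted p 0.0213 to 0.129), among them the removal of any 1 of 7 arrays: control replicate 3, siOct4 replicates 2 and 3, siCcnf+siNipp1 replicates 1 and 3, and siRb1 replicates 1 and 3. siRb1 against control gave 0.23 ± 0.12 and was not called.

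The second XBP1 probe, listed for NM_001079539, gave 11.85 to 12.04 in control, 12.67, 12.84 and 12.79 in siOct4, 12.41, 12.62 and 12.42 in siCcnf+siNipp1, and 12.23, 12.23 and 12.26 in siRb1. It gave the same order of the groups, with fold changes against control of 1.74 in siOct4 and 1.43 in siCcnf+siNipp1 (adjusted p = 0.000267 and 0.00337 in the fit over probes). Its difference between siOct4 and siCcnf+siNipp1 missed the threshold (adjusted p = 0.0634). NM_005080 and NM_001079539 are the unspliced and the spliced form, and where each probe binds was not examined. The first probe exceeded the second by 0.06 to 0.27 on every array, and no level of splicing is read from that.

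**Figure D3:**
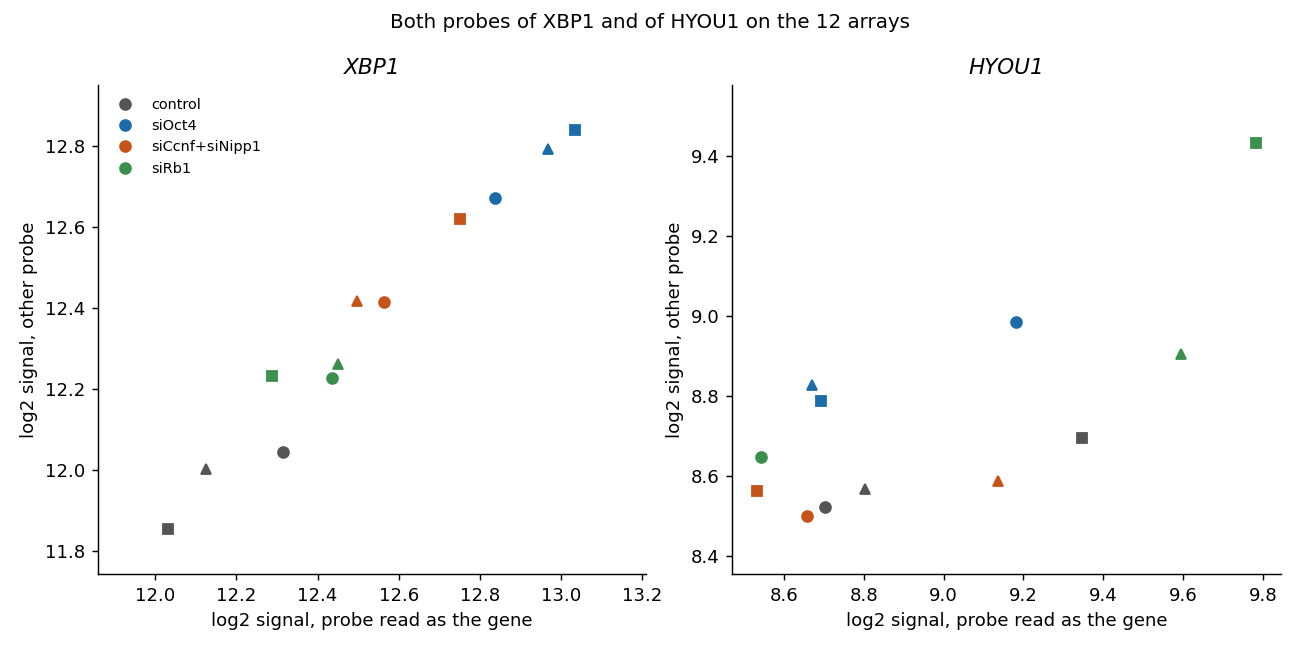
Log2 signal of the probe read as the gene (horizontal) against the gene's other probe (vertical) on the 12 arrays for XBP1 and HYOU1; colours are groups and circles, squares and triangles are replicates 1, 2 and 3. The XBP1 probes place the groups in 1 order, and the HYOU1 probes order the control and siOct4 arrays differently.

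Against control, siOct4 called 3 of the 9 members, with XBP1 and EDEM1 higher and HSP90B1 lower. The same comparison called 34.2% of all genes, 17.6% higher and 16.6% lower. siCcnf+siNipp1 also called 3, with DNAJC3, HSP90B1 and XBP1 higher and 0 lower, beside 38.3% of all genes, 19% higher and 19.3% lower. siRb1 called HSP90B1 alone, beside 4.7% of all genes, 2.96% higher and 1.74% lower. With 9 members these shares are near the background, and no comparison is particular to the members by its count. The counts of siRb1 depend on the fit: with the replicate number as a block it called 1162 genes and 2 members. It called 0 members with median scaling or without control replicate 3, siRb1 replicate 2 or siRb1 replicate 3. The median difference of the members was -0.10 in siOct4, 0.16 in siCcnf+siNipp1 and 0.23 in siRb1, with the medians of all tested genes at -0.01, 0.00 and 0.00. The comparisons share the control arrays.

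**Figure D4:**
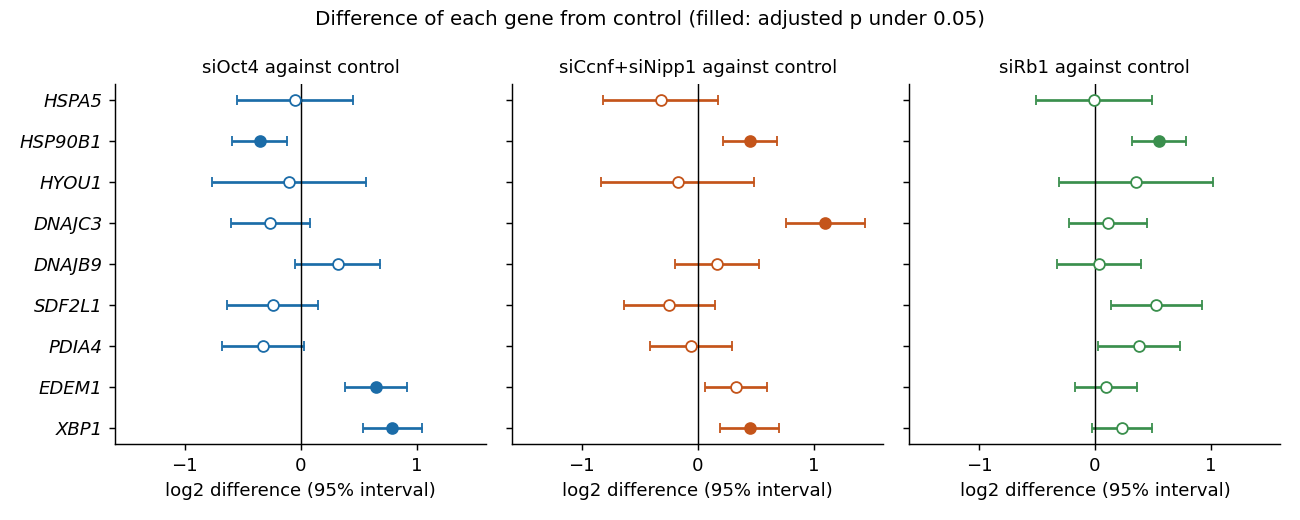
Log2 difference of each measured gene from control in the 3 knockdowns, with 95% intervals of the limma model; filled points have an adjusted p under 0.05. DNAJC3 at 1.10 in siCcnf+siNipp1 is the largest difference in this fit, and only HSP90B1 is filled in siRb1.

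Between knockdowns, siOct4 differed from siRb1 in 5 members: XBP1 and EDEM1 were higher and HSP90B1, PDIA4 and SDF2L1 lower in siOct4. That comparison called 33.4% of all genes, 16.6% higher and 16.8% lower. siOct4 differed from siCcnf+siNipp1 in 3, with XBP1 higher and DNAJC3 and HSP90B1 lower, beside 35.2% of all genes, 17.9% higher and 17.2% lower. siCcnf+siNipp1 differed from siRb1 in 2, with DNAJC3 higher and SDF2L1 lower, beside 36% of all genes, 17.6% higher and 18.4% lower. The members with an ER stress response element in the window, HSPA5, HSP90B1 and XBP1, differed in their calls: against control HSPA5 had none, XBP1 rose in siOct4 and siCcnf+siNipp1, and HSP90B1 was called in all 3 knockdowns.

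Within groups, after removing group means, the correlations of the 36 pairs of members ran from -0.84 to 0.91 with a median of 0.16, and 19 pairs were under 0.3 in size. These describe 12 arrays that share their normalisation. Deviations that same-numbered arrays of different groups have in common were not removed, and their part in these correlations was not tested. PDIA4 and HYOU1 had a correlation of 0.91 and PDIA4 and XBP1 one of -0.84. HSPA5 and SDF2L1 had one of 0.70. The 5 genes whose signal was most like that of HSPA5 over the 12 arrays were ARHGAP26, MUC16, ITSN1, MPND and LARP4B, with Pearson correlations from 0.86 down to 0.82. They were picked as the highest among the 10873 tested genes, and how high unrelated genes would reach was not tested. ARHGAP26 was detected on 3 and MUC16 on 4 of the 12 arrays, so their correlations rest partly on background signal, and the 3 others on all 12.

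Of the sensors, the ERN1 probe was undetected on all 12 arrays and was not tested. EIF2AK3, which encodes PERK, gave 8.05, 8.30 and 8.28 in control, 8.49, 8.33 and 8.77 in siOct4, 9.22, 10.07 and 10.44 in siCcnf+siNipp1, and 8.07, 8.36 and 8.46 in siRb1. The siCcnf+siNipp1 arrays stood above all others, and the rise of 1.70 ± 0.25 (adjusted p = 0.000395) held under the 20 alternatives. ATF6 rose by 0.40 in siOct4 (adjusted p = 0.0286) and by 0.36 in siCcnf+siNipp1 (adjusted p = 0.0387). These calls were lost in 7 and 8 alternatives, among them the removal of control replicate 2 or control replicate 3 and median scaling (adjusted p up to 0.187 and 0.205). The siOct4 call was also lost without siOct4 replicate 1 or siOct4 replicate 2, and the siCcnf+siNipp1 call without its replicate 2, its replicate 3 or siRb1 replicate 3. CREB3L2, a membrane-bound relative of ATF6, rose by 1.40 in siOct4 and 1.01 in siCcnf+siNipp1, and MBTPS2, which encodes a protease that cuts ATF6, fell by 0.65 in siOct4. Of 9 sensor and activation genes tested, 2 rose and 1 fell in siOct4, 5 rose in siCcnf+siNipp1 and 0 were called by limma in siRb1 (1 at an unadjusted p under 0.05). The shares were 22.2% higher and 11.1% lower in siOct4, beside 17.6% and 16.6% of all genes, and 55.6% higher in siCcnf+siNipp1, beside 19%. The 5 became 3 without control replicate 2, control replicate 3, siCcnf+siNipp1 replicate 2, siCcnf+siNipp1 replicate 3 or siRb1 replicate 3, and 2 with median scaling. The 2 of siOct4 became 1 without control replicate 2, control replicate 3 or siOct4 replicate 2 and with median scaling, and its 1 fallen gene became 2 without control replicate 2. With the block 3 rose and 2 fell in siOct4, 5 rose and 1 fell in siCcnf+siNipp1 and 1 rose in siRb1.

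The eIF2α-ATF4-CHOP branch, which lies below PERK and other eIF2α kinases such as PKR, was higher in siOct4 for 5 of 13 tested genes, with 0 lower. These are 38.5% and 0% of the list, beside 17.6% and 16.6% of all genes. EIF2AK3 was not called in siOct4 (0.32, adjusted p = 0.358), and which kinase acted, if any, was not tested. ATF4 gave 14.28, 14.34 and 14.43 in control, 14.95, 15.10 and 15.14 in siOct4, 14.33, 15.07 and 14.98 in siCcnf+siNipp1, and 14.08, 14.23 and 14.37 in siRb1. It rose in siOct4 (0.71, adjusted p = 0.00793). In siCcnf+siNipp1 it was not called (0.45, adjusted p = 0.0612) but passed without that group's replicate 1 (0.68, adjusted p = 0.00196) and with the block (adjusted p = 0.0183). The mean over the probes of ATF4 gave 0.081 there (adjusted p = 0.771), and over all alternatives the adjusted p ran from 0.00196 to 0.771. ASNS, asparagine synthetase, rose by 1.65 in siOct4, and CHAC1, which degrades glutathione, was detected on all 3 siOct4 arrays and no control array, at least 1.38-fold higher. In siCcnf+siNipp1 CHAC1 was detected on 1 array of 3 and gets no fold. DDIT3, the gene of CHOP, gave 9.14, 9.53 and 9.57 in control, 9.28, 10.29 and 10.43 in siOct4, 9.33, 10.70 and 10.69 in siCcnf+siNipp1, and 9.05, 9.85 and 10.02 in siRb1, with replicate 1 the lowest of every group. It was not called (adjusted p = 0.283 in siOct4 and 0.121 in siCcnf+siNipp1) and passed with the block (adjusted p = 0.02 and 0.00347), and in siCcnf+siNipp1 without its replicate 1 (1.28, adjusted p = 0.0141). In siCcnf+siNipp1 4 genes rose, with NUPR1, a stress-induced chromatin protein, at 1.30, and EIF2S1, which encodes eIF2α, fell by 0.81. The 4 include CHAC1, which 1 array of that group and no control array detected. The shares were 30.8% higher and 7.69% lower, beside 19% and 19.3% of all genes. The NUPR1 call was lost when control replicate 3 or siCcnf+siNipp1 replicate 2 was left out. That count of 4 became 2 without control replicate 2, 1 without control replicate 3 or without siCcnf+siNipp1 replicate 2, 7 without siCcnf+siNipp1 replicate 1 and 8 with the block, and the 5 of siOct4 became 8 with the block. In siRb1 limma called 0 of the 13 (1 at an unadjusted p under 0.05). The median differences of the branch were 0.53 and 0.45 in siOct4 and siCcnf+siNipp1, or 0.47 and 0.44 with CHAC1 at its limit, and -0.12 in siRb1.

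Among 25 other ER folding genes tested, 11 rose and 4 fell with siCcnf+siNipp1, with a median difference of 0.37. HSPA13, an ER-associated HSP70, rose by 1.19 and SIL1, a nucleotide exchange factor of BiP, by 0.80. A second probe of HSPA13 gave 0.32 there, and without background correction the probe read gave 0.62. TXNDC12, a thioredoxin-like ER protein, fell by 1.84, from 12.97, 12.82 and 13.03 in control to 11.31, 11.09 and 10.89, and CANX, the lectin chaperone calnexin, fell by 0.79. The count of 11 stayed between 8 and 12 when any 1 array was left out and was 7 with median scaling. The 11 and the 4 are 44% and 16% of the list, beside 19% and 19.3% of all genes. With siOct4 3 rose and 2 fell: HSPA13 rose by 0.57 and ERO1A, the oxidase that recharges disulfide isomerases, by 0.51, while TXNDC12 fell by 0.80 and TXNDC5 by 0.58. The 3 and the 2 are 12% and 8% of the list, beside 17.6% and 16.6% of all genes. The call of HSPA13 in siOct4 was lost in 15 of 20 alternatives, and its second probe gave 0.18. The 3 became 4 with the block and 1 when any of 8 arrays was left out: control replicate 2, control replicate 3, siOct4 replicate 2, siOct4 replicate 3, siCcnf+siNipp1 replicate 2, siCcnf+siNipp1 replicate 3, siRb1 replicate 1 or siRb1 replicate 3.

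With siRb1 3 of the 25 rose and 0 fell: CRELD2 (0.74), PDIA6 (0.50) and DNAJB11 (0.43), the last being the DnaJ partner of SDF2L1. The risen share was 12%, beside 2.96% of all genes. The PDIA6 call was lost when any 1 of 6 arrays was left out. CRELD2, a secreted ER stress protein, gave 12.34, 12.35 and 12.04 in control and 12.90, 13.03 and 13.01 in siRb1, without overlap. The 3 became 0 without control replicate 3, siRb1 replicate 2 or siRb1 replicate 3, 1 without control replicate 2, siRb1 replicate 1 or siCcnf+siNipp1 replicate 2, 5 without siOct4 replicate 1 or siOct4 replicate 3, 0 with median scaling and 6 with the block. The median difference of the list was 0.27, with the median of all genes at 0.00 under quantile normalisation and -0.10 with median scaling.

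**Figure D5:**
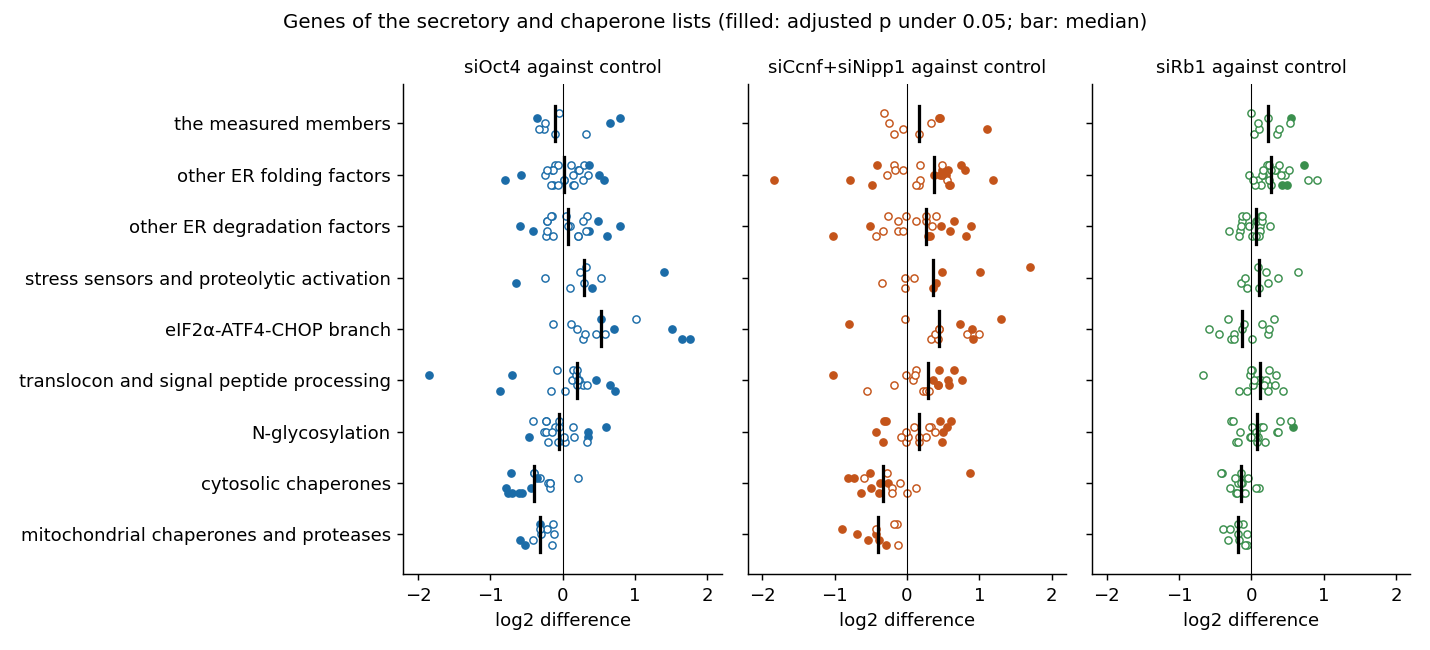
Log2 difference from control of every tested gene of the 9 measured members and of 8 other lists in the 3 knockdowns; filled points have an adjusted p under 0.05 and the vertical bar is the list's median. The cytosolic and mitochondrial chaperone medians lie below 0 in all 3 knockdowns, least so in siRb1 (-0.15 and -0.18). The other ER folding genes have their highest median, 0.37, in siCcnf+siNipp1.

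Of 21 other ER degradation genes, 4 rose and 2 fell with siOct4 and 6 rose and 2 fell with siCcnf+siNipp1, and limma called 0 with siRb1 (1 at an unadjusted p under 0.05). The shares were 19% higher and 9.52% lower in siOct4, beside 17.6% and 16.6% of all genes, and 28.6% and 9.52% in siCcnf+siNipp1, beside 19% and 19.3%, so the risen shares are near those of genes at large. OS9, a lectin that delivers glycoproteins to the ubiquitin ligase, rose by 0.61 and 0.82 in siOct4 and siCcnf+siNipp1. SEL1L, the scaffold of that ligase, rose by 0.89 in siCcnf+siNipp1, and VCP, the ATPase that pulls substrates out of the membrane, fell by 1.02. SEL1L was detected on 2 of the 3 control arrays, and its rise ran from 0.43 to 1.04 over the alternatives. HERPUD2, a paralogue of HERPUD1, rose by 0.80 in siOct4, where UBE2J2, a ubiquitin-conjugating enzyme, fell by 0.59 and FAF2, an adaptor of VCP, by 0.41. The UBE2J2 call was lost without control replicate 3, siOct4 replicate 1 or siOct4 replicate 3, and its second probe gave -0.34. With the block 7 rose and 3 fell in siOct4 and 9 rose and 3 fell in siCcnf+siNipp1, and each count of 2 became 1 when certain single arrays were left out (control replicate 3, siOct4 replicate 1 or siOct4 replicate 3 for siOct4; for siCcnf+siNipp1 control replicates 2 and 3, siOct4 replicate 3, its own replicate 3 or any siRb1 array).

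Of 18 translocon and signal peptide genes, 8 rose and 1 fell with siCcnf+siNipp1, led by SEC61A1, the channel subunit, at 0.76. The shares in that comparison were 44.4% higher and 5.56% lower, beside 19% and 19.3% of all genes. SSR2, a translocon-associated protein, rose by 0.65 there on the probe read, with -0.09 on its second probe, and the call was lost when control replicate 2 or siCcnf+siNipp1 replicate 3 was left out. The 8 became 5 without control replicate 1, 4 when control replicate 2 or siCcnf+siNipp1 replicate 2 was left out, 3 without siCcnf+siNipp1 replicate 3 and 3 with median scaling. With siOct4 3 rose and 3 fell: SEC11A, a signal peptidase subunit, rose by 0.72 and SSR4 by 0.65, SEC62, detected on 2 siOct4 arrays, fell by 0.86, and SEC61A2, a paralogue of the channel subunit, was at least 2.1-fold lower, detected on no siOct4 array. In siCcnf+siNipp1 1 array of 3 detected SEC61A2, so its level there is partly background; the fitted difference was -1.03, or -0.50 without background correction. In siOct4 the risen and the fallen share were 16.7% each, beside 17.6% and 16.6% of all genes. The block gave 4 risen genes in siOct4 and 2 fallen ones in siCcnf+siNipp1. With siRb1 limma called 0 of the 18 (4 at an unadjusted p under 0.05, and 2 with the block).

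Of 20 N-glycosylation genes, 3 rose and 1 fell with siOct4, 5 rose and 4 fell with siCcnf+siNipp1 and 1 rose with siRb1. These are 15% and 5% in siOct4, 25% and 20% in siCcnf+siNipp1 and 5% higher in siRb1, beside 17.6% and 16.6%, 19% and 19.3%, and 2.96% of all genes, and such counts set the list apart in no comparison. STT3A, the catalytic subunit of an oligosaccharyltransferase, rose by 0.60 in siOct4 and 0.58 in siRb1, and its paralogue STT3B by 0.61 in siCcnf+siNipp1. DPAGT1 rose by 0.35 and GANAB fell by 0.47 in siOct4, while MOGS rose by 0.55 and ALG5 and DPM3 fell by 0.42 and 0.33 in siCcnf+siNipp1. With median scaling 0 genes rose in any of the 3 comparisons and 2 fell in siCcnf+siNipp1. When 1 array was left out the risen genes numbered 1 to 3 in siOct4, 2 to 7 in siCcnf+siNipp1 and 0 to 1 in siRb1. The fallen genes numbered 0 to 2 in siOct4 and 0 to 4 in siCcnf+siNipp1. The block gave 4 risen and 2 fallen genes in siOct4, 8 risen genes in siCcnf+siNipp1 and 3 in siRb1. The calls of DPAGT1, GANAB, ALG5 and DPM3 were each lost when any 1 of 4 arrays was left out, that of STT3A in siRb1 with any 1 of its own or the control arrays, that of STT3B without control replicate 2 and that of MOGS when control replicate 3 or siCcnf+siNipp1 replicate 2 was left out.

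Chaperones of the cytosol and of mitochondria, which serve other compartments, are given for comparison. Like the lists above, they were chosen with earlier results of these data known, so the shares are descriptions only. Of 16 cytosolic chaperone genes, 9 fell and 0 rose with siOct4 (median -0.40), and 8 fell and 1 rose with siCcnf+siNipp1 (median -0.33). The fallen shares were 56.2% and 50%, beside 16.6% and 19.3% of all genes. The risen shares were 0% and 6.25%, beside 17.6% and 19%. CCT2, a subunit of the chaperonin TRiC, fell by 0.78 and STIP1, which links HSP70 to HSP90, by 0.72 in siOct4, and CCT5 fell by 0.82 and HSPH1 by 0.73 in siCcnf+siNipp1, where HSPA2 rose by 0.87. The 9 became 5 without control replicate 2, and the 8 became 5 when control replicate 3 or siCcnf+siNipp1 replicate 1 was left out, and each became 10 with the block. Of 10 mitochondrial chaperones and proteases, 3 fell with siOct4, among them CLPX (-0.59) and HSPD1 (-0.52, with -0.20 and -1.15 on its other probes), and 6 fell with siCcnf+siNipp1, led by GRPEL1 (-0.89) and LONP1 (-0.69). The fallen shares were 30% and 60%, beside 16.6% and 19.3% of all genes, and 0 rose. The 6 became 2 when control replicate 2 or siCcnf+siNipp1 replicate 3 was left out and 3 when control replicate 3 or siCcnf+siNipp1 replicate 2 was, and with the block the 3 became 6 and the 6 became 7. With siRb1 limma called 0 genes of both lists (3 cytosolic and 2 mitochondrial ones at an unadjusted p under 0.05, and 1 of each with the block). The medians in siRb1 were also below 0, at -0.15 for the cytosolic and -0.18 for the mitochondrial list. Whether these lists differ from the ER genes was not tested.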

How the data were processed

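Per the file headers, the table the authors deposited holds signal intensities with detection p-values for 47322 probes on 12 arrays, read in GenomeStudio per the submitters' processing notes (version not given in the sources used here), and a normalised intensity for 47303 probes, which served as an alternative. No genome build is named in the array files. Signals were processed in R 4.3.3 with limma 3.58.1: neqc (offset 16, background from the detection p-values, quantile normalisation, log2), probes with 1 gene kept where 3 or more arrays had a detection p-value under 0.01, and the kept probe of highest mean taken for each gene. Of 30102 probes with 1 gene, 30063 gene identifiers matched the reference table, and 8 probes with several genes were not used. A model with a mean per group (8 residual and 3.85 prior degrees of freedom) gave 6 contrasts and the F test, tested on simulated data first. The simulated noise was independent between arrays, so it could not show how deviations shared by same-numbered arrays alter the calls. Where no array of the lower group detected a probe, the change is a limit ("at least N-fold"): each such array was set to its own lowest detected value, or to the probe's value if that was higher, before averaging.

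Same-numbered arrays deviated from their group means together, with correlations over all genes from 0.107 to 0.419 in the 18 pairs. The numbers were therefore taken to pair the samples, from the data and the labels' replicate numbers. The main fit left this pairing out, so its adjusted p-values and calls ignore it. The fit with the replicate block is given where it changes the call of a named gene or the count of a list against control. The 10 members and 8 pathway lists were chosen with earlier results of these data known. Named were all members in every comparison, the knockdown targets, 5 sensors and effectors, from each list up to 2 called genes with the largest rise and fall whose groups do not overlap, and the 5 genes most correlated with HSPA5. DNAJB11 was named outside that rule, after its values were seen. Alternatives were median scaling, no background correction, the authors' deposited normalised intensities, no detection filter or detection on all 12 arrays, the mean over a gene's probes, the block, the arrays of the 2 groups alone and leaving out each array. Promoters came from RefSeq (GRCh38.p14). Figures were drawn with Python 3.11.15 and matplotlib.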

Additional observations from a re-analysis of the deposited data

How the results depend on the processing

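The 54 differences of the 9 members were recomputed under 20 alternatives each, 1080 values in all. Of these, 1016 kept their direction and their side of the threshold, 21 lost a call, 19 gained one and 24 changed sign, all of the last for differences near 0 that were not called. With median scaling DNAJB9 in siRb1 against control was -0.042 and HSPA5 in siOct4 against siRb1 0.013, and with the mean of a gene's probes HYOU1 in siOct4 against control was 0.085. When 1 array was left out, HSPA5 ranged from -0.30 to 0.090 (siOct4 against control), -0.23 to 0.16 (siRb1 against control) and -0.29 to 0.18 (siOct4 against siRb1). HYOU1 ranged from -0.27 to 0.10 (siOct4 against control), -0.36 to 0.023 (siCcnf+siNipp1 against control) and -0.093 to 0.25 (siOct4 against siCcnf+siNipp1). PDIA4 ranged from -0.20 to 0.059 (siCcnf+siNipp1 against control), DNAJC3 from -0.030 to 0.22 and DNAJB9 from -0.013 to 0.13 (siRb1 against control). Between siOct4 and siCcnf+siNipp1 DNAJB9 ranged from -0.040 to 0.25 and SDF2L1 from -0.15 to 0.14. ATF6 in siRb1 against control was -0.028 with median scaling.

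Median scaling left 1 called member in siCcnf+siNipp1 against control (3 in the report) and 0 in siRb1 against control (1), where it also turned 322 genes higher and 189 lower into 162 and 245 (63% to 39.8% higher). In siOct4 against siRb1 it turned 1803 higher and 1827 lower into 1955 and 1245 (49.7% to 61.1% higher). It moved the median of all genes by at most 0.10. With the replicate block siRb1 against control called 1162 genes (511 without) and 2 members, and apart from the changes given in the report it changed no other member's call. Leaving out 1 array gave 165 to 556 genes and 0 to 1 members in siRb1 against control, and 2 to 4 members in siCcnf+siNipp1 against siRb1. With 3 arrays a group, the 95% intervals of HSPA5 against control given in the report hold 0 and changes of either sign.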
